A study of Mus musculus with 2 samples.

Results

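The basement membrane is a thin sheet of extracellular matrix that underlies epithelium and wraps muscle cells, nerves and blood vessels. Its laminins are trimers of 1 α, 1 β and 1 γ chain that bind integrins and dystroglycan on the cell surface, while nidogens and perlecan link the laminin network to the type IV collagen network. In the intestine both the epithelium and the stroma contribute chains to this sheet, and the α chain largely sets which receptor a trimer binds. Described here are 10 genes of the stromal side, chosen by gene symbol from the 28692 features of the count matrices: the α chains Lama2, Lama4 and Lama5, the β chains Lamb1 and Lamb2, the γ chains Lamc1 and Lamc3, the nidogens Nid1 and Nid2, and Hspg2, which encodes perlecan. All 10 were measured and each is counted in what follows.

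The cells came from embryonic small intestine (SI) and large intestine (LI) of EYFP (C57BL/6) mice, bred from EYFP males and C57BL/6Nrj dams, transplanted beneath the renal capsule of wild-type (WT) adults and left there for 4 weeks. Donor stromal cells were sorted as YFP+ and Itgb1+ and as negative for CD45, Ter119, BP3, CD31, EpCAM and L1CAM, so that blood, endothelial, epithelial and glial cells were largely gated out and Itgb1 was selected for. There was 1 single-cell RNA-seq library of LI grafts, which the study pooled, and 1 of SI grafts. A 3′ or a 5′ kit was used, and which library had which was not given in the sources used here, so that intestinal region, library, kit and donor embryos cannot be told apart.

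The LI graft library held 63348069 unique molecular identifiers (UMIs) in 11568 barcodes and the SI graft library 54918006 in 9631, with 26 barcode sequences found in both. A cell was kept if it had 500 genes or more and no more than 10% of its UMIs from mitochondrial genes, which left 9873 LI and 7910 SI cells, with medians of 5288 and 5682 UMIs. Cells were assigned to stromal classes by the number of marker genes with a UMI, none of which is among the 10 genes. The names stand for these marker gates: PDGFRAhi, adventitial, CD81 and Fgfr2 fibroblasts (FB), other FB, smooth muscle-like cells, and mural-like cells, which were called contractile when at least 4 smooth muscle markers had a UMI. The cells below that cut still held 1308 and 1973 CPM of the smooth muscle list, against 130 to 1199 CPM in the fibroblast classes. Contractile mural cells also had more UMIs, with medians of 5629 and 6495 against 4043 and 3767 in LI and SI grafts. The part of depth in this split was not tested. Fibroblasts numbered 7410 in LI grafts and 5228 in SI grafts, smooth muscle cells 240 and 307, and mural cells 496 and 958. Interstitial cell of Cajal-like cells (ICC) numbered 325 and only 46. The summed level of the mural marker list was 8059 and 8027 CPM (counts scaled to 1000000 UMIs of the class) in non-contractile mural cells and between 91 and 952 CPM in the fibroblast classes. A gate is a cut in a range: in the LI graft 207 cells held exactly the 4 mural markers required and 432 held 1 fewer.

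Levels are pooled CPM: a gene's UMIs over all cells of a class were added up and scaled to the UMI total of that class. Intervals are exact 95% intervals (Poisson for levels, binomial for ratios, Clopper-Pearson for shares) and cover counting error only. With 1 library per group no test between conditions was possible. A difference between classes was counted when it reached 2-fold in the same direction in both libraries, with 1 CPM added. UMIs are counted from transcript ends and were not scaled for length, so levels were compared between classes and not between genes.

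Of the 10 genes, 9 had their highest level in the same class in both libraries, among the 8 classes with at least 50 cells in each. Over all 10606 genes that reached 10 CPM this share was 42.4%. Lama4, Lamb1, Lamc1 and Hspg2 were highest in PDGFRAhi FB, Lama5 and Lamb2 in contractile mural cells, Lamc3 in non-contractile mural cells, Lama2 in Fgfr2 FB and Nid1 in adventitial FB. For Lama2 in the LI graft the order of the first 3 classes was within counting error. Nid2 was the exception, with its highest level in non-contractile mural cells of the LI graft and in Fgfr2 FB of the SI graft.

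**Figure D1:**
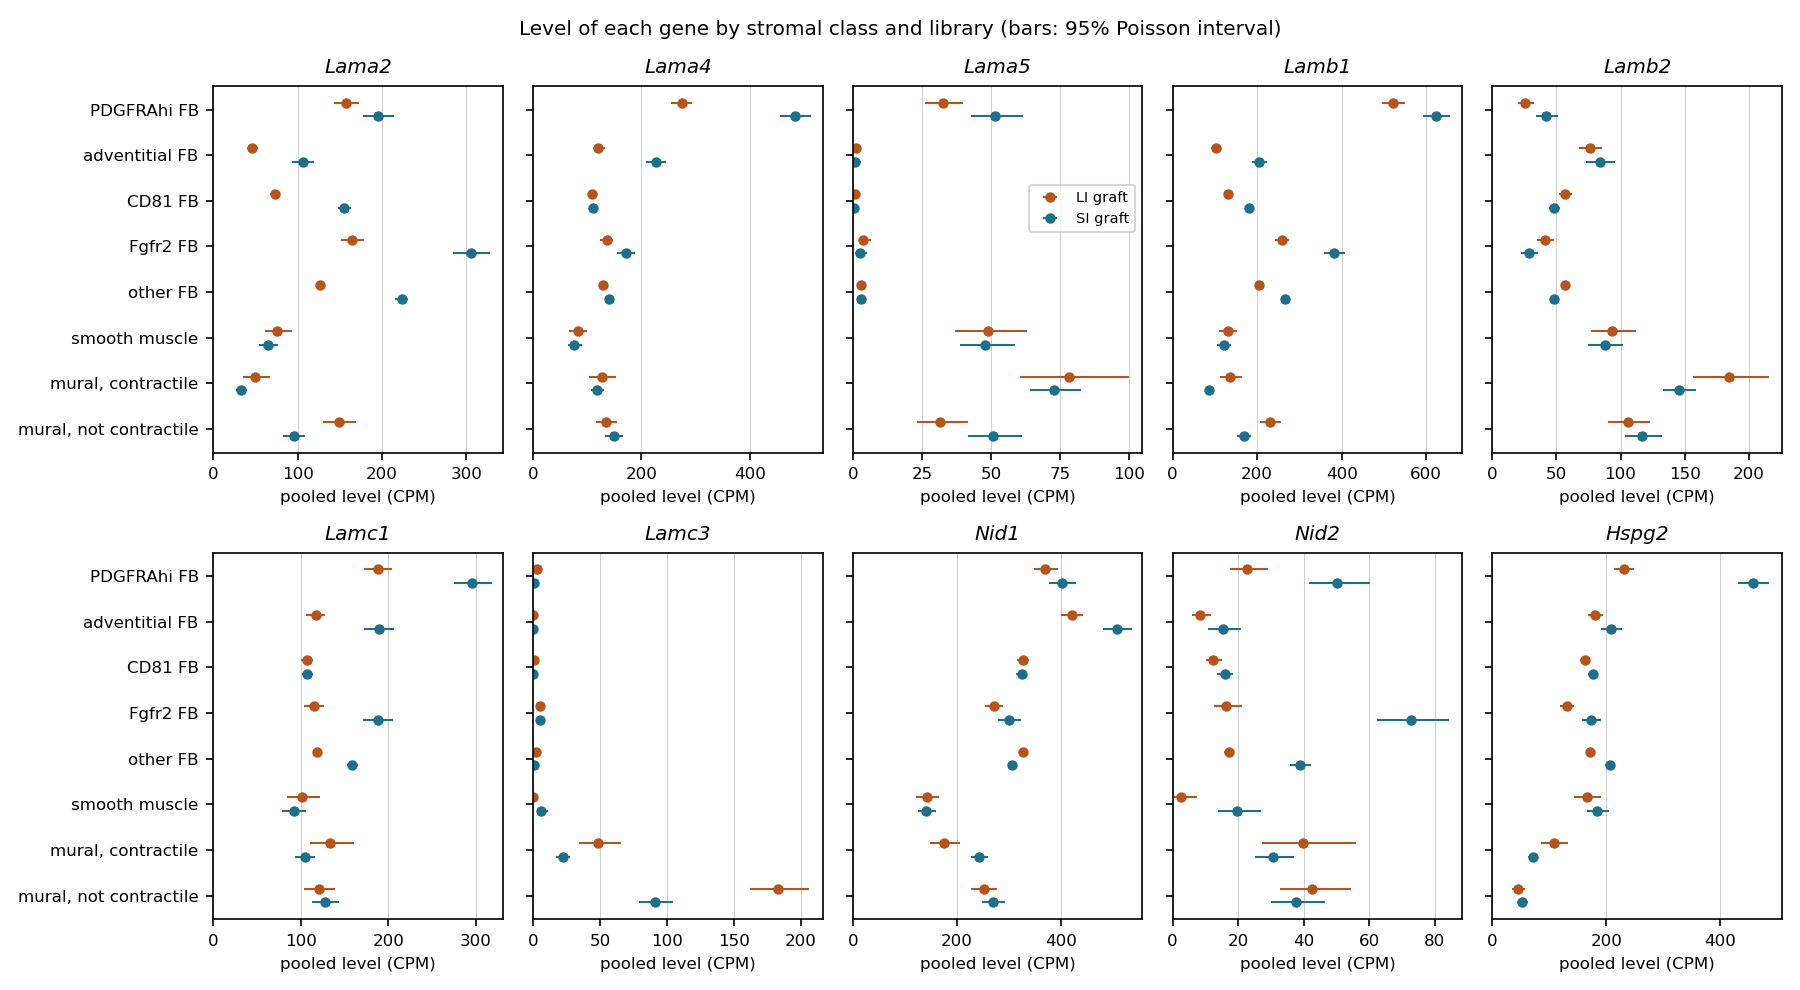
Pooled level (CPM, horizontal axis, separate scale per gene) of the 10 genes in 8 stromal classes of the LI graft (orange) and SI graft (blue), with 95% Poisson intervals. Lamc3 lies near 0 in every fibroblast class and at 183 and 91.1 CPM in non-contractile mural cells, while Lamb1 peaks in PDGFRAhi FB at 522 and 624 CPM.

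The promoters of Lama5 and Lamb1 are shown because both genes were higher in PDGFRAhi FB than in other fibroblasts, a choice made after their values were seen. Of the 10 genes, 6 had an entry in the RefSeq promoter table (GRCm38.p6): Lama2, Lama5, Lamb1, Lamb2, Nid1 and Hspg2. The windows below end before the annotated gene start and are written 5′ to 3′ on the strand of the gene. Capitals mark GC boxes (GGGCGG on either strand), which 32.9% of 27025 promoters held within 250 bases before the start.
Lama5, chr2:180225860-180226109, minus strand: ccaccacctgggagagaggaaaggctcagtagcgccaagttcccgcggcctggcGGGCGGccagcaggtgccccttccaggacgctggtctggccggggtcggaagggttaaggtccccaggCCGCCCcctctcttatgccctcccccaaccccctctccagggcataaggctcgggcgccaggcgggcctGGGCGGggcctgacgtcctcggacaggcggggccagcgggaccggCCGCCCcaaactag
Lamb1, chr12:31265043-31265233, plus strand: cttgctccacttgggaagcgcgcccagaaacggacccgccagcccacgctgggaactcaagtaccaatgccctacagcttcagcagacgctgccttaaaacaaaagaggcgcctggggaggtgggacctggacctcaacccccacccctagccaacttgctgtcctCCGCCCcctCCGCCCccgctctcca
Lama5 lies at chr2:180176373-180225859 on the minus strand and Lamb1 at chr12:31265234-31329644 on the plus strand in the GENCODE annotation (mm10). The Lama5 window held 4 GC boxes and the Lamb1 window 2. A TATA box (TATAAA), found in 12.97% of promoters, matched in none of the 6.

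Lama2, the α chain of the laminin that surrounds muscle fibres, reached 165 CPM (152 to 179) in LI and 306 CPM in SI Fgfr2 FB. In PDGFRAhi FB it stood at 158 CPM (143 to 173) in LI grafts, which overlapped the Fgfr2 FB interval, and at 195 CPM in SI grafts. In non-contractile mural cells it stood at 149 CPM in LI grafts and 95.2 CPM in SI grafts, against 49.4 and 32.9 CPM in contractile mural cells. Non-contractile cells thus had the higher level in both libraries, by 2.97-fold and 2.83-fold. Against all fibroblasts, mural cells of the LI graft did not differ beyond counting error (log2 ratio -0.01, interval -0.19 to 0.17), whereas those of the SI graft were lower (-1.75, -1.92 to -1.60).

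Lama4, the α chain typical of vessel walls and mesenchyme, was detected in all 8 classes. It stood at 274 CPM in LI and 484 CPM in SI PDGFRAhi FB, against 125 and 140 CPM in the remaining fibroblasts. Its lowest levels were those of smooth muscle cells, 82.4 and 76.3 CPM. In mural cells it measured 132 CPM in LI grafts and 130 CPM in SI grafts.

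Lama5, an α chain of mature epithelial, vascular and muscle basement membranes, was highest in mural cells, smooth muscle cells and PDGFRAhi FB among the 8 classes. It reached 78.4 and 72.9 CPM in contractile mural cells, 48.8 and 47.9 CPM in smooth muscle cells and 32.6 and 51.5 CPM in PDGFRAhi FB of the LI and SI graft. In CD81 FB it measured 0.924 and 0.539 CPM, and no other fibroblast class passed 4 CPM. Mural cells exceeded fibroblasts by 9.34-fold and 10.3-fold, smooth muscle cells by 9.49-fold and 7.71-fold, and PDGFRAhi FB exceeded other fibroblasts by 9.75-fold and 18.2-fold. The summed smooth muscle marker level was 825 and 1199 CPM in PDGFRAhi FB, against 270 and 401 CPM in the FB outside the named subsets, and its part in the result was not tested. A Lama5 UMI was found in 16.3% (13.2 to 19.9%) of LI and 25.9% (23.1 to 28.8%) of SI mural cells and in 2.17% and 2.26% of fibroblasts. After each cell was thinned to 2000 UMIs, the shares were 7.17% and 12.98% in mural cells and 0.961% and 0.693% in fibroblasts. Immune cells, taken as a check on RNA from outside the cell, had no Lama5 UMI in 28 LI and 14 SI cells, at medians of 3456 and 2674 UMIs, which allows up to 19.5 and 55.3 CPM (upper Poisson limits). Of the 10 genes only Lamc1 was counted in immune cells, at 10.6 CPM in the LI graft.

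Lamb1, the β chain of most embryonic laminins, was highest in PDGFRAhi FB at 522 CPM in LI grafts and 624 CPM in SI grafts. Other fibroblasts stood at 185 and 240 CPM, which is 2.82-fold and 2.59-fold lower. Fgfr2 FB had the next highest level, 259 and 383 CPM, and the intervals of both classes were apart.

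Lamb2, the β chain of muscle and vascular laminins, had nearly the reverse order. It was highest in contractile mural cells, at 184 and 146 CPM, followed by non-contractile mural cells at 106 and 117 CPM. Fibroblasts stood at 55.2 and 49.1 CPM, 2.39-fold and 2.70-fold below mural cells. The lowest fibroblast levels were 25.7 CPM in PDGFRAhi FB of the LI graft and 28.3 CPM in Fgfr2 FB of the SI graft.

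Lamc1, the γ chain shared by most laminins, varied least among the 10 genes, with its highest class 1.84-fold above its lowest in LI grafts and 3.21-fold in SI grafts. PDGFRAhi FB were highest at 188 and 296 CPM, and smooth muscle cells lowest at 102 and 91.7 CPM.

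Lamc3, a γ chain of restricted distribution, was counted mainly in mural cells. Non-contractile mural cells held 183 CPM in LI grafts and 91.1 CPM in SI grafts, contractile mural cells 48.2 and 22.1 CPM, and fibroblasts 1.86 and 0.861 CPM. Mural cells were 47.7-fold and 27.0-fold above fibroblasts, and non-contractile cells 3.74-fold and 4.00-fold above contractile ones. In smooth muscle cells no Lamc3 UMI was seen in the LI graft, which allows up to 3.103 CPM, and 12 UMIs were seen in SI grafts (6.18 CPM). A Lamc3 UMI was present in 41.3% of LI and 28.3% of SI non-contractile mural cells, and in 27.3% and 18.0% after thinning to 2000 UMIs. In fibroblasts the shares were 1.05% and 0.497% before thinning, and 0.473% and 0.285% after it.

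Nid1, which encodes a nidogen that binds the laminin γ1 chain, was detected in all 8 classes. Adventitial FB were highest at 421 and 507 CPM, all fibroblasts stood at 333 and 334 CPM, and smooth muscle cells were lowest at 142 and 141 CPM. Smooth muscle cells were thus 2.33-fold and 2.35-fold below fibroblasts, while their summed fibroblast marker level was 10328 and 11797 CPM, and its part in the result was not tested. Adventitial FB were also among the most deeply sequenced cells, with medians of 11509 and 10312 UMIs, whose part in the result was not tested.

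Nid2 encodes the second nidogen. Mural cells held 41.6 CPM in LI grafts and 33.4 CPM in SI grafts, and fibroblasts 15.8 and 32.8 CPM. The mural excess over fibroblasts was therefore seen in the LI graft (log2 ratio 1.34, 1.03 to 1.64) and not in SI grafts (0.02, -0.20 to 0.24).

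Hspg2 encodes perlecan, a heparan sulphate proteoglycan. Its level was 230 CPM in LI and 457 CPM in SI PDGFRAhi FB, 166 and 184 CPM in smooth muscle cells, and 67.1 and 63.5 CPM in mural cells. Mural cells were 2.51-fold and 3.29-fold below fibroblasts, with non-contractile cells the lowest class in both libraries at 45.3 and 52.6 CPM.

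All 10 genes reached the minimum of 10 CPM in the mural contrasts, 9 in the smooth muscle and PDGFRAhi contrasts against fibroblasts and 8 between libraries, where Lama5 and Lamc3 stayed below it. Lama5 in all 3 contrasts with fibroblasts reached that minimum only through the class where it was high. So did Lamc3 in mural cells, both against fibroblasts and against smooth muscle cells. In these contrasts the 2 genes could be counted in 1 direction only. The shares of all tested genes are therefore given as background, not as support. Counted together, 3 of the 10 genes (Lama5, Lamb2 and Lamc3) were at least 2-fold higher in mural cells than in fibroblasts in both libraries, where 8.56% of 9493 genes were, and 1 (Hspg2) was lower, where 8.63% were. In smooth muscle cells against fibroblasts, 1 gene (Lama5) was higher, with 5.06% of all genes, and 1 (Nid1) lower, with 5.18%. In PDGFRAhi FB against other fibroblasts, 3 genes (Lama4, Lama5 and Lamb1) were higher, with 4.39% of all genes, and none was lower, with 3.82%. The medians of the 10 log2 ratios for PDGFRAhi FB, the untested Lamc3 included, were 0.52 in LI grafts and 0.84 in SI grafts, against 0.13 and 0.25 over the 9491 genes tested. For mural cells over fibroblasts they were 0.03 and -0.36, against 0.12 and 0.12. Between contractile and non-contractile mural cells none was higher (1.51% of all genes) and 2 were lower (Lama2 and Lamc3, against 0.737%). Between mural and smooth muscle cells 1 was higher (Lamc3, against 6.06%) and 1 lower (Hspg2, against 5.98%).

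**Figure D2:**
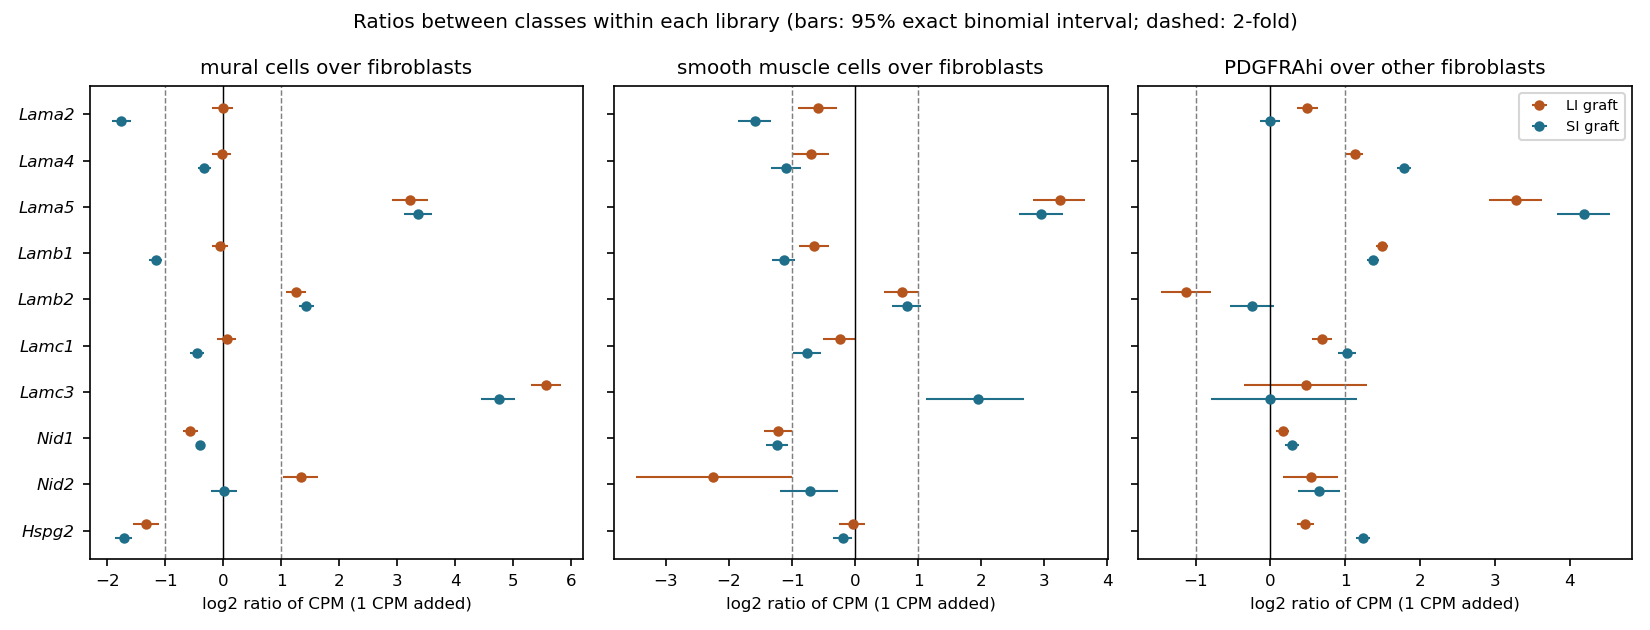
Log2 ratio of pooled CPM (horizontal axis, 1 CPM added) for mural cells and smooth muscle cells over fibroblasts and for PDGFRAhi over other fibroblasts, in the LI graft (orange) and SI graft (blue), with exact 95% binomial intervals and dashed lines at 2-fold. Lama5 lies above the upper line in all 3 panels, and Hspg2 lies below the lower line for mural cells. No point is drawn where a class had no UMI.

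The mix of chains differed between classes when each gene was set against the other α, β or γ chains among the 10 genes. Lama5 made up 1.68% of these α chain UMIs in LI and 1.46% in SI fibroblasts, 16.4% (13.7 to 19.3%) and 25.5% (23.2 to 27.8%) in mural cells, and 23.6% and 25.4% in smooth muscle cells. Lamb2 made up 21.2% and 15.5% of β chain UMIs in fibroblasts and 40.4% and 53.1% in mural cells. In PDGFRAhi FB it made up 4.69% and 6.27%, below its share in all fibroblasts. UMIs were not scaled for length, so these shares compare classes and do not rank genes within a class. Lamc3 made up 52.0% (47.9 to 56.0%) and 30.3% (27.3 to 33.4%) of the UMIs of Lamc1 and Lamc3 in mural cells, and 1.52% and 0.549% in fibroblasts.

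**Figure D3:**
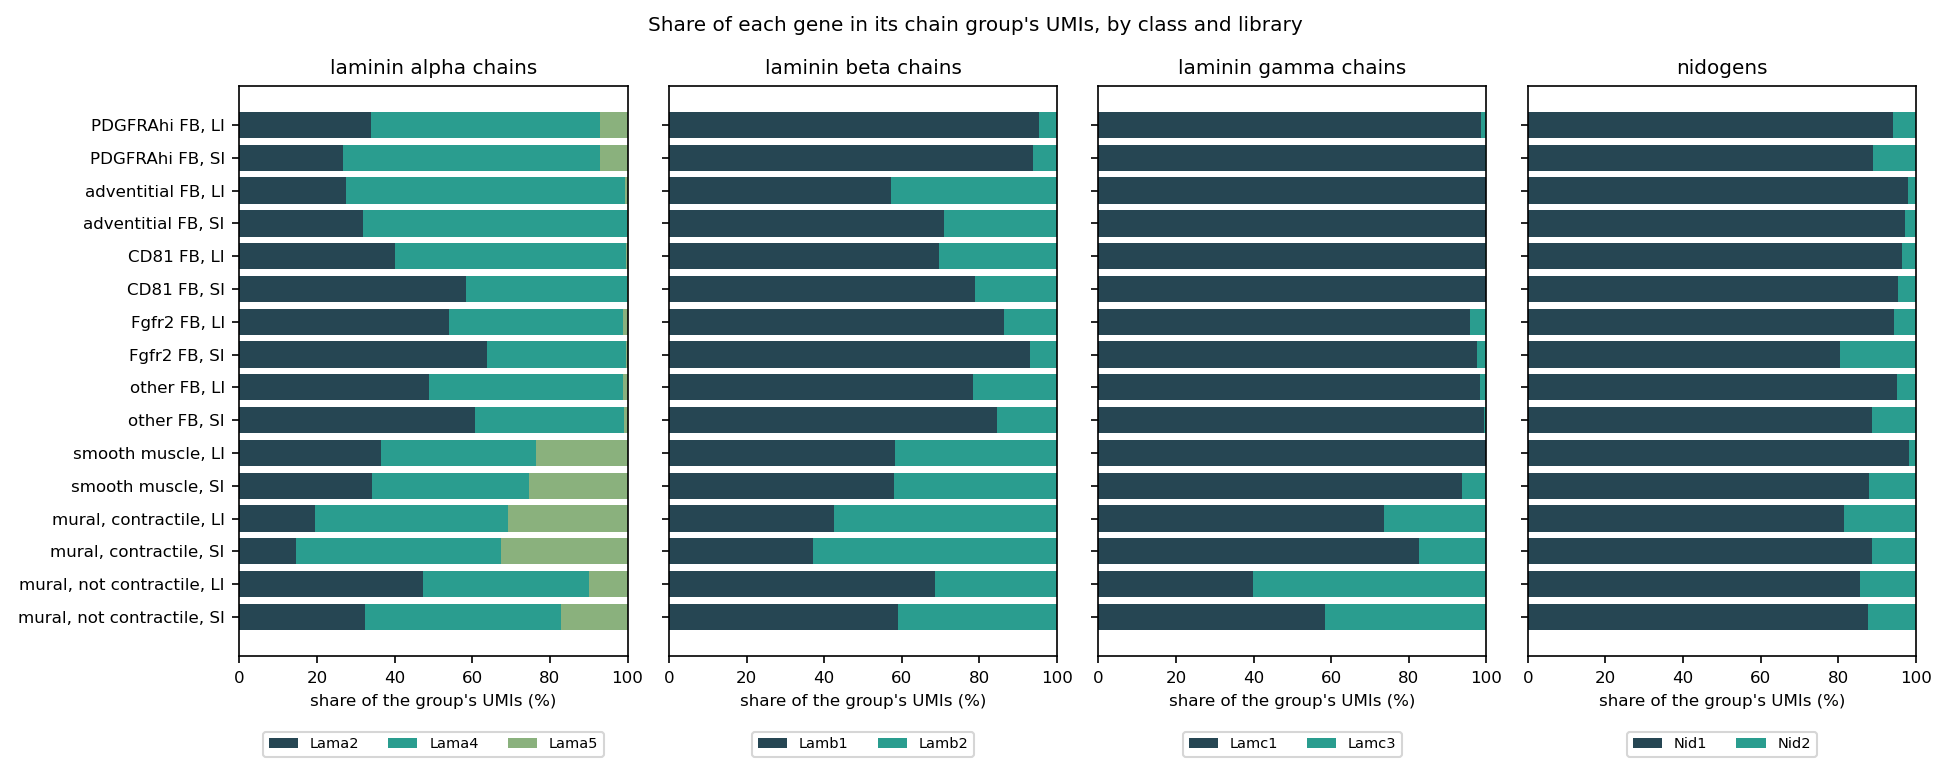
Share of each gene in the UMIs of its group (laminin α, β and γ chains, nidogens; horizontal axis, %) in 8 classes of the LI and SI graft, each group holding only those of the 10 genes that belong to it. Lamc3 takes 60.3% and 41.7% of its group in non-contractile mural cells and at most 4.33% in any fibroblast class.

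Between the libraries, 1 of the 10 genes passed 2-fold in fibroblasts. Nid2 stood at 15.8 CPM in LI grafts and 32.8 CPM in SI grafts, 2.01-fold lower in LI, where 1.64% of 8616 genes were lower by 2-fold. None was higher by 2-fold, against 1.81% of all genes. Lama2 followed with 114 and 196 CPM (log2 ratio -0.77, -0.82 to -0.72). The Lama2 ratio was -0.65 in female and -1.999 in male cells, and male cells made up 8.27% of LI and 23.4% of SI fibroblasts. Female cells made up 83.0% and 58.2%, and the remaining fibroblasts had neither call. Sex cannot be told apart from donor embryo here. Nid1 did not differ between libraries beyond counting error (0.00, -0.04 to 0.03). By class, Nid2 was 2-fold lower in LI in 4 of 8 classes, the largest gap among fibroblasts being that of Fgfr2 FB with 16.4 and 72.8 CPM. In smooth muscle cells, 1 of the 4, Nid2 had only 3 UMIs in the LI graft. Lama2 was 2-fold lower in LI in 2 classes (adventitial and CD81 FB) and Lamb1 in 1 (adventitial FB). Lamc3 was 2-fold higher in LI in 2 classes and lower in 1, partly on few UMIs.

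Lama2 and Lamb1 differed in the opposite direction in mural cells. Lama2 was higher in LI mural cells, at 114 against 57.4 CPM (log2 ratio 0.97, 0.74 to 1.21), and so was Lamb1, at 197 against 119 CPM (0.73, 0.55 to 0.90), although both were lower in LI fibroblasts. Lamc3 and Lama5 had the same direction in both: Lamc3 was higher in LI mural cells, at 136 against 49.2 CPM (1.44, 1.21 to 1.68), and in LI fibroblasts (0.62, 0.29 to 0.93), and Lama5 was lower in both (-0.41 and -0.27). Both genes stayed below 10 CPM in the fibroblasts of both libraries. Among the 8 classes, Lama5 was lower in LI beyond counting error only in PDGFRAhi FB (-0.65) and non-contractile mural cells (-0.67). Nid2, lower in LI fibroblasts (-1.01), did not differ in mural cells beyond counting error (0.31, -0.05 to 0.66). Nor did Lama4, Lamb2, Lamc1 and Hspg2 in mural cells. Nid1 was lower in LI mural cells (-0.17, -0.32 to -0.03). The mix of mural cells differed, with 361 of 496 non-contractile in LI grafts and 515 of 958 in SI grafts. Within non-contractile mural cells alone the ratios were 0.64 for Lama2, 0.45 for Lamb1 and 0.998 for Lamc3. Within contractile mural cells alone, Hspg2 (0.60, 0.23 to 0.95), Lamc1 (0.36, 0.04 to 0.66) and Lamb2 (0.34, 0.07 to 0.60) were higher in LI. In non-contractile mural cells Hspg2, Lamc1 and Lamb2 did not differ beyond counting error.

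**Figure D4:**
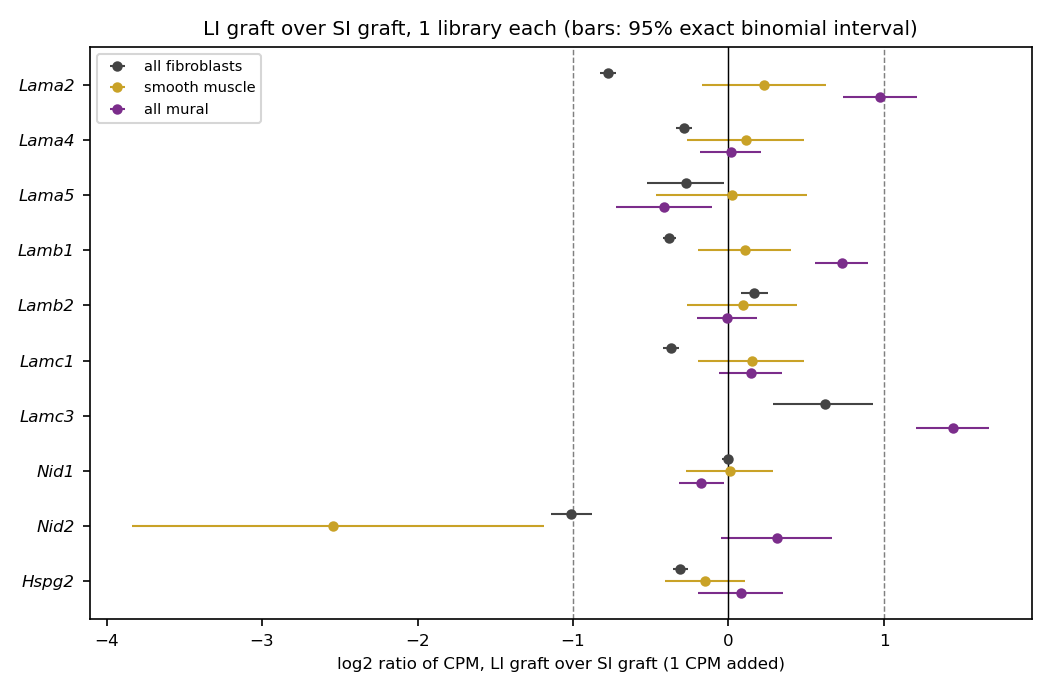
Log2 ratio of pooled CPM in the LI graft over the SI graft (horizontal axis, 1 CPM added) for fibroblasts (grey), smooth muscle cells (yellow) and mural cells (purple), with exact 95% binomial intervals and dashed lines at 2-fold. Lama2 and Lamb1 lie left of 0 in fibroblasts and right of 0 in mural cells, and Lamc3 is not drawn for smooth muscle cells, where the LI graft had no UMI.

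Fibroblasts with a UMI of all 4 MHC class II genes (449 in LI grafts and 446 in SI grafts) had less Lama2 and Lamb1 than fibroblasts with none. Lama2 stood at 34.9 against 132 CPM in LI grafts and 130 against 218 CPM in SI grafts. Lamb1 stood at 106 against 226 CPM and 164 against 284 CPM. Lama4, Lama5, Lamb2, Lamc1, Nid1 and Nid2 were also lower in both libraries, with intervals that left out 0. The log2 ratio of Nid2, for example, was -1.39 and -0.48, and that of Lama4 -0.41 and -0.45. Lamc3 was lower in LI grafts and did not differ in SI grafts beyond counting error. Hspg2 was higher in LI grafts, at 193 against 165 CPM, and stood at 197 against 212 CPM in SI grafts. Asking for a UMI of all 4 genes favours deeply sequenced cells, and the part of depth was not tested. The make-up of the fibroblasts with and without these UMIs differed by subset: the summed MHC class II level was 1174 and 1187 CPM in CD81 FB and 81.8 and 133 CPM in PDGFRAhi FB. CD81 FB also had less Lama2 (73.0 and 156 CPM, against 124 and 216 CPM in other fibroblasts) and less Lamb1 (130 and 181 CPM, against 222 and 309 CPM), and the part of subset in the result was not tested.

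The wider pathway comprised 32 further genes. Of 6 type IV collagens, 4 were tested and 2 were higher in mural cells than in fibroblasts (8.56% of all tested genes), Col4a1 by 3.77-fold and 3.06-fold and Col4a2 by 3.85-fold and 2.78-fold. In PDGFRAhi FB, 3 of the 5 tested were higher (4.39% of all tested genes), among them Col4a5 by 4.34-fold and 11.5-fold and Col4a6 by 5.44-fold and 18.5-fold. The gene of these 3 not named here reached 10 CPM only in PDGFRAhi FB of the SI graft. It could be counted in 1 direction only. Col4a5 and Col4a6, 2 of the 4 tested between libraries, were also 3.47-fold and 5.17-fold higher in LI than in SI fibroblasts (1.81% of all tested genes). Col4a6 stayed below 10 CPM in SI fibroblasts (6.74 CPM), so that it could be counted in 1 direction only.

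Of 11 laminin receptors and linkers, 8 were tested, of which 6 were higher in mural cells (8.56% of all tested genes) and 0 lower (8.63%). Bcam, Itga7 and another of these 6 stayed below 10 CPM in fibroblasts of both libraries, so they could be counted in 1 direction only. The same held for Bcam, Itga7 and another gene in smooth muscle cells. Shares of all tested genes are again background, not support. Bcam, a receptor for the laminin α5 chain, was higher in mural cells by 53.4-fold and 47.8-fold, Itga7 by 40.5-fold and 49.1-fold, and Itga1 by 8.997-fold and 11.4-fold. Smooth muscle cells also had 6 of 8 higher (5.06% of all tested genes), among them Itgb1, which the sort had selected for, with Bcam at 17.6-fold and 11.5-fold and Dmd, which encodes dystrophin, at 7.53-fold and 5.65-fold. Of 15 other basement membrane proteins, 13 were tested, of which 4 were higher and 6 lower in mural cells. Tinagl1 was higher by 96.0-fold and 131-fold and Agrn, which encodes agrin, by 3.86-fold and 3.26-fold, while Col15a1 was lower by 6.12-fold and 7.04-fold. Tinagl1 stayed below 10 CPM in fibroblasts, and some of the 6 lower genes stayed below it in mural cells. These could be counted in 1 direction only. Between the libraries 12 of the 15 were tested. In fibroblasts 5 were at least 2-fold lower in LI (1.64% of all tested genes) and 0 higher (1.81%). Some of these 5 stayed below 10 CPM in LI fibroblasts, so that the same limit holds.

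Across the 16 class profiles of both libraries, the gene with the profile most like that of Lama5 among 4084 candidates was Actn4 (Pearson r = 0.97 on log2 values), and that of Lamc3 was Taok3 (0.97), followed by Rapgef2 and Notch1. For Lamb2 it was Plec (0.95), for Nid1 Anxa5 (0.94), for Hspg2 Fzd2 (0.94) and for Lamb1 Fut8 (0.93). Among the 10 genes themselves, Lama4 and Lamc1 were most alike (r = 0.95), and Hspg2 and Lamc3 least (-0.85). These are descriptions over classes that share libraries.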

How the data were processed

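Single-cell suspensions from LI and SI grafts (1 library each) had been aligned to mm10 with Cell Ranger 3.1.0, and the authors deposited raw UMI counts per gene and cell. Counts were used as deposited. The 10 genes, marker lists and pathway lists were chosen with earlier results of these data known. Classes were gated on marker lists, with thresholds set on the markers. Examples are at least 4 of 8 mural markers with at most 3 fibroblast markers, or 5 of 7 smooth muscle markers. Cells that met more than 1 non-fibroblast gate were left out as possible doublets. Together with the cells that met no gate, 1330 LI and 1293 SI cells stayed ungated. Counts were summed per class. Genes named from the pathway lists passed 2-fold in both libraries, or between the libraries, and reached 50 CPM in some class. The 3 most similar genes per member were found by Pearson correlation of log2(CPM + 10). Ratios and intervals were tested on simulated data. Alternatives included other cell filters, gates, pseudocounts, doublet removal, Seurat 5.3.0 clusters and edgeR 4.0.16 TMM scaling. Analyses ran in Python 3.11.15 with scipy 1.17.1. One further list of genes is not reported here. No p-values were computed, since cells are not replicates.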

Additional observations from a re-analysis of the deposited data

Results flagged for a closer look

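Some members moved in opposite directions between cell classes or libraries, with intervals that left out 0 on both sides, and these differences were not tested. The rule was loosened after a first version, which also asked for a 1.5-fold size, had found none, and the comparison of LI with SI was added after its values had been seen. The log2 ratio of LI over SI was -0.77 in fibroblasts and 0.97 in mural cells for Lama2, and -0.38 and 0.73 for Lamb1. The summed fibroblast marker level was between 2855 and 3377 CPM in the mural classes of both libraries and at least 18651 CPM in every fibroblast class, and its part in the result was not tested. Lama4 in adventitial FB against other fibroblasts had a log2 ratio of -0.17 in LI grafts and 0.51 in SI grafts.

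Members were also counted in cells that the sort should have removed and that no comparison used. In 5 endothelial-like cells of the LI graft the levels were 411 CPM for Hspg2, 219 CPM for Lama4, 164 CPM for Nid1 and 110 CPM for Lamb1, and in 5 of the SI graft Hspg2 stood at 207 CPM. In epithelial-like cells Lamb1 stood at 86.0 CPM in 5 LI cells and Lamc1 at 12.5 CPM in 36 SI cells. Each of these values rests on 4 to 15 UMIs.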

How the results depend on the processing

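No paired analysis was possible because each group had 1 library. The 9 genes highest in the same class in both libraries became 6 over the 5 classes that Seurat clusters left, and 8 or 9 under the other settings. Those 5 classes held no mural class, because the mural cluster of the LI graft was named contractile and those of the SI graft not contractile. The mural peaks of Lama5, Lamb2 and Lamc3 and the contractile split could therefore not be compared between libraries with clusters. The 4 genes past 2-fold between mural cells and fibroblasts became 3 with a stricter gate, without Lamb2, and stayed 4 otherwise. The 2 genes past 2-fold between smooth muscle cells and fibroblasts became 1 with clusters, without Nid1. The 3 genes past 2-fold in PDGFRAhi FB became 2 with clusters, without Lamb1. The single gene past 2-fold between LI and SI fibroblasts, Nid2, lies at the threshold: the count was 0 with the stricter cell filter, the stricter gate and a pseudocount of 5 CPM, and 2 in male cells, where Lama2 joined it (log2 ratio -1.999), an alternative chosen after seeing the data. Its log2 ratio ranged from -1.15 to -0.86 over all settings. Male cells were 8.27% of LI and 23.4% of SI fibroblasts. Of 590 single ratios recomputed, 502 stayed within their counting interval, 88 moved beyond it and 0 reversed a counted direction. Clusters rich in fibroblast markers were kept from non-fibroblast names by a rule added after a haemoglobin-rich fibroblast cluster had been named erythroid. Classes of few cells, such as the 135 contractile mural cells of the LI graft, limit the precision of Lama5 and Lamc3.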

Other observations

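Mesothelial-like cells (32 in LI grafts and 23 in SI grafts) were too few to enter the comparisons. Nid2 took 40.0% of their nidogen UMIs in LI grafts and 41.3% in SI grafts, against 4.53% and 8.96% in fibroblasts, and its level was 54.9 and 71.1 CPM. Lama5 stood at 59.5 CPM (31.7 to 102) in LI and 11.2 CPM (2.32 to 32.8) in SI mesothelial-like cells.

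In ICC of the LI graft (325 cells), Lama4 measured 130 CPM and Hspg2 143 CPM, against 134 and 170 CPM in fibroblasts, while Lama2 measured 43.0 CPM. In the 46 ICC of the SI graft Lama4 measured 58.8 CPM and Hspg2 131 CPM, against 164 and 211 CPM in fibroblasts. Lama5 stood at 3.74 CPM in ICC of the LI graft and at 45.2 CPM (21.7 to 83.2) in those of the SI graft.

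Cycling fibroblasts of the SI graft (56 cells with at least 3 of 4 cycling genes) held 41.9 CPM of Lama5 against 4.03 CPM in those with none. In the 62 cycling fibroblasts of the LI graft it was 10.3 against 4.33 CPM, with a ratio that did not differ beyond counting error. The cycling marker list was higher in PDGFRAhi FB than in other FB of the SI graft (283 against 52.3 CPM), and its part in the result was not tested.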
